A study of Mus musculus with 6 samples.

Results

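The 10 prostaglandin genes described here supply the enzymes that make prostaglandin E2 (PGE2), its 4 receptors and the enzyme that inactivates it: *Pla2g4a*, *Ptgs1*, *Ptgs2*, *Ptges*, *Ptges2*, *Ptger1*, *Ptger2*, *Ptger3*, *Ptger4* and *Hpgd*. They were chosen by gene symbol, with earlier results of these data known. They account for 19 of the 56605 transcript probes and 10 of the 37074 gene names on an Agilent mouse gene expression array. The study asked what loss of the calcium-activated chloride channel Ano1 does to osteoclasts, the multinucleated cells that resorb bone. Total RNA came from mouse bone marrow cells cultured toward osteoclasts with RANKL, the cytokine that drives osteoclast formation, for 5 days, and each RNA was labelled with Cy3 and hybridised to an array of its own. The *Ano1fl/fl* group (3 arrays) came from mice whose *Ano1* alleles carry loxP sites and which have no Cre. The *Ctsk-Cre;Ano1fl/fl* group (3 arrays) carries the same floxed alleles together with Cre recombinase driven by the cathepsin K gene, *Ctsk*. Since *Ctsk* is switched on as osteoclasts form, cells of these cultures that do not express it keep *Ano1*, and arrays with Cre but without the floxed alleles were not analysed here. By the study's methods the cells of each genotype were from 3 mice and the controls were littermates, and the labels do not tie a sample number to a litter.

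All levels are log2 of the scanner's processed signal after quantile normalization of the 6 arrays, so that a difference of 1 is a factor of 2. Between 33480 and 34951 of the 59305 transcript spots of an array were well above background, 0 were saturated, and arrays of the same group correlated at 0.995 to 0.997 against 0.947 to 0.951 for arrays of different groups. The *Ano1* probe was near background throughout, with processed signals of 3.22 to 3.91 where the dimmest spots well above background gave 15.0 to 18.4, so it could not check the genotypes and every direction below is that of the arrays' labels. An exchange of the 2 labels would turn the sign of each difference printed here, and it was not tested. The labelled knockout arrays had higher signals for all 10 osteoclast markers, such as *Ctsk* and *Mmp9*, and the summed linear signal of the list was 498923 to 562107 there against 146416 to 158913. This direction is opposite to the one the study gives for *Nfatc1*, *Acp5*, *Ctsk* and *Mmp9* measured by PCR in cultures of these genotypes. For its *Ctsk-Cre;Ano1fl/fl* cultures the study also reports less NFATc1 protein, fewer TRAP-stained multinucleated osteoclasts, weaker acidification and smaller resorption pits. Of 20 markers of stromal cells and osteoblasts, the fibroblast and bone-forming cells of marrow, 16 were higher and 2 lower, and their sum was 72878 to 119919 against 4720 to 5700. In RNA from mixed cultures, a change in the number of cells of a type and a change in RNA per cell cannot be told apart.

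Prostaglandins are short-range lipid signals. Cytosolic phospholipase A2 frees arachidonic acid from membranes, the cyclooxygenases COX-1 and COX-2 turn it into prostaglandin H2, and terminal synthases turn that into PGE2 and its relatives. In bone PGE2 acts through the EP receptors on osteoblasts, stromal cells and osteoclast precursors, and it is known for promoting osteoclast formation through RANKL as well as for stimulating bone formation.

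The proximal promoters of the cyclooxygenase genes *Ptgs2*, which rose, and *Ptgs1*, which fell, are shown because these sister genes moved in opposite directions. Each line gives 250 bases directly before the RefSeq transcription start, on the strand of the gene, from RefSeq's promoter table for GRCm38.p6, and capitals mark matches to the motifs named below.
*Ptgs2*, chr1:150099781-150100030, plus strand: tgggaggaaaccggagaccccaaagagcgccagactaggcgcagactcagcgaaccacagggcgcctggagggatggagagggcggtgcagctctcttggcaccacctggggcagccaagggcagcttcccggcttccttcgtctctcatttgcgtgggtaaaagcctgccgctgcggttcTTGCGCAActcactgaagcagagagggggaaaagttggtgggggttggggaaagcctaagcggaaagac
*Ptgs1*, chr2:36230176-36230425, plus strand: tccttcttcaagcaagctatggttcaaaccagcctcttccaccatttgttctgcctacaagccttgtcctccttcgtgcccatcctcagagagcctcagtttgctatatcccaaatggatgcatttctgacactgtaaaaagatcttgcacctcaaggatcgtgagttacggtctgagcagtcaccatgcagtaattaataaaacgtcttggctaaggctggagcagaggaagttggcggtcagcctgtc
A stretch of 30 bases just after the *Ptgs2* start holds a further pair of matches.
*Ptgs2*, chr1:150100035-150100064, plus strand: tcaccactaCGTCACGTGgagtccgcttta

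Windows of 300 bases (250 before to 50 after the start) were searched on both strands for the letters TATAA (TATA box), TGACG (core of the element read by cAMP response factors), CACGTG (E-box) and TTGCNNAA (C/EBP element), which were chosen because elements of these kinds are known from *Ptgs2* genes. The *Ptgs2* window held the C/EBP letters as TTGCGCAA at 69 to 62 bases before the start, the cAMP core on the minus strand at bases 14 to 18 after it, and the E-box at bases 17 to 22 after it. The last of these overlap. The windows of *Ptgs1*, *Ptges*, *Ptger3* and *Ptger4* held none of the 4 motifs. *Ptger2*, which was lower, also held the C/EBP letters, as TTGCTTAA at bases 40 to 47 after its start. *Ptges2* held the E-box, and *Hpgd* and 1 of the 2 windows of *Pla2g4a* held TATAA. Among the windows of the members, only that of *Ptgs2* held the cAMP core. A link between the matches and the direction of the members was not tested. Over all 32851 windows of the table, the C/EBP letters occurred in 10.8%, the E-box in 7.15%, the cAMP core in 20.8% and TATAA in 24.9%. These are matches of letters in a window, with positions counted from the RefSeq start, and their use was not tested here. Windows were listed for 9 of the 10 members.

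In the limma fit across 20645 genes, 3 of the 9 tested members were higher in the *Ctsk-Cre;Ano1fl/fl* group (*Ptgs2*, *Ptges* and *Ptges2*) and 3 were lower (*Ptgs1*, *Ptger2* and *Ptger3*) at a Benjamini-Hochberg adjusted p under 0.05, while *Pla2g4a*, *Ptger4* and *Hpgd* did not pass and *Ptger1* could not be tested. The share of all tested genes that passed was 52.4%, with 23.4% higher and 29.0% lower, so 6 members of 9 is a count near that background. Without normalization between the arrays 2564 genes were higher and 6989 lower, and 1 member was higher and 4 were lower. Past 2-fold as well, 1 member was higher (*Ptgs2*) and 2 were lower (*Ptgs1* and *Ptger3*), where 17.1% of all genes passed, 9.88% higher and 7.19% lower. The 2 groups of arrays did not overlap for 6 of the 9 members, as for 64.0% of all tested genes. Of the 19 member probes, 13 were well above background on all 6 arrays, 1 on 5 arrays and 5 on none. In the fit across 31848 probes, 5 of the 14 tested member probes were higher and 4 lower, against 52.4% of all probes called (21.8% higher and 30.6% lower), and the groups did not overlap for 11 of the 14, against 64.0% of all probes. With 3 arrays against 3, an exact two-sided permutation test of a single gene cannot give a p below 0.1. The calls therefore rest on limma's model, which takes the log2 values of a gene as normally distributed within a group.

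**Figure D1:**
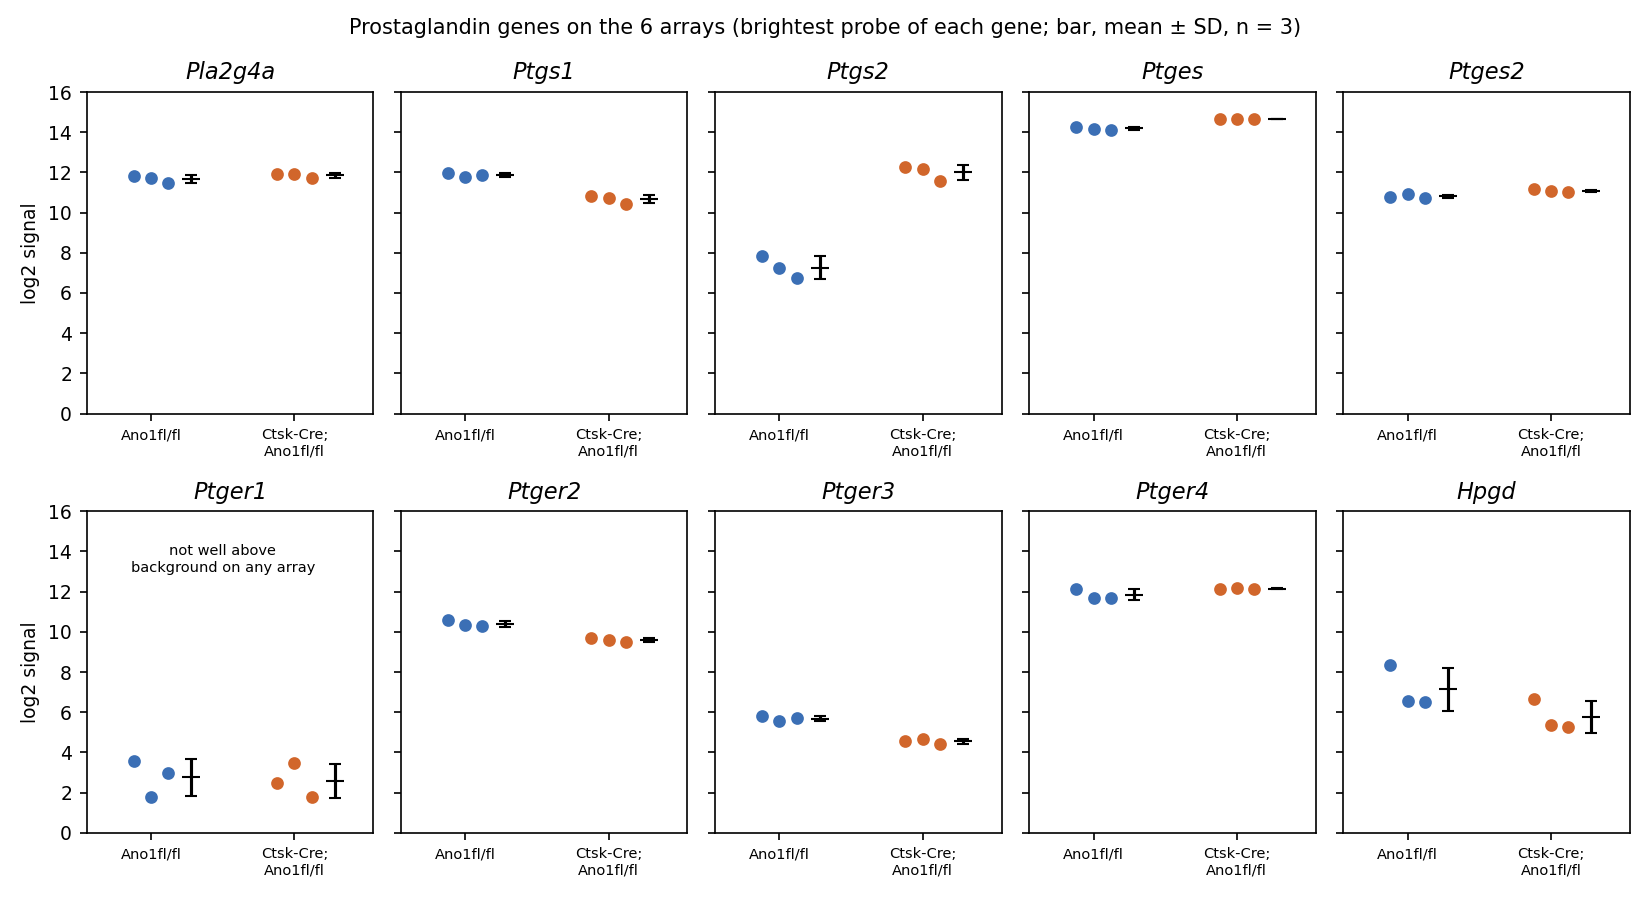
Normalized log2 signal of the brightest probe of each of the 10 genes on the 3 *Ano1fl/fl* arrays (blue) and the 3 *Ctsk-Cre;Ano1fl/fl* arrays (orange), with the mean ± SD of each group as a black bar. *Ptgs2* moves from 6.72 to 7.85 up to 11.56 to 12.27, the other members shift by far less, and *Ptger1* stays in the range of probes not well above background; heights are not comparable between panels, since each gene has its own probe.

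*Pla2g4a* encodes cytosolic phospholipase A2 alpha, the enzyme that starts the pathway by releasing arachidonic acid. Its brighter probe (A_55_P1997604) read 11.83, 11.70 and 11.47 in the *Ano1fl/fl* group and 11.91, 11.91 and 11.72 in the *Ctsk-Cre;Ano1fl/fl* group. The ranges overlapped, and the log2 difference of 0.18 ± 0.12 (SE) had a 95% confidence interval of -0.09 to 0.46 and an adjusted p of 0.222 in limma's fit. A second probe (A_55_P2719699), listed for an Ensembl transcript of the gene, read 5.51, 5.22 and 4.79 against 4.75, 4.65 and 4.53. Its groups did not overlap and its log2 difference was -0.53 ± 0.18 (SE), with an adjusted p of 0.0508 in the probe fit. The data thus leave the direction of *Pla2g4a* unsettled, and a rise of more than 0.46 on the log2 scale lies outside the interval of the brighter probe.

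The cyclooxygenases moved in opposite directions. *Ptgs1* encodes COX-1, the form that most tissues make all the time and that platelets and macrophages hold in large amounts. Its main probe (A_51_P279100, mm9 chr2:36107644-36107703) read 11.95, 11.78 and 11.87 in the *Ano1fl/fl* group and 10.82, 10.74 and 10.45 in the *Ctsk-Cre;Ano1fl/fl* group. Every *Ctsk-Cre;Ano1fl/fl* array was below every *Ano1fl/fl* array, by 2.29-fold on average (log2 difference -1.20 ± 0.12 SE, limma adjusted p = 4.27e-04). The second *Ptgs1* probe (A_55_P2720465), for another transcript, read 6.03, 5.96 and 6.23 against 4.49, 4.33 and 2.18, and the lowest of these was not well above background. It also fell by 2.41 on the log2 scale, with an adjusted p of 0.0154 in limma's probe fit. The size of that fall is uncertain: the log2 difference was -1.66 without *Ctsk-Cre;Ano1fl/fl* replicate 3, the dim array, and -0.72 after a background correction with an added offset. Markers of megakaryocytes and platelets fell beside *Ptgs1*: 5 of 6 were lower and none higher, with all 6 well above background on every array, and their summed signal was 53650 to 62386 against 124299 to 142131. Of 11 macrophage and monocyte markers, 5 were lower, among them *Cx3cr1* by 4.62 and *Ccr2* by 3.36 on the log2 scale, 1 was higher and 5 did not pass, with all 11 well above background on every array and sums of 444315 to 485037 against 523850 to 536716. The part of these cells in the *Ptgs1* difference was not tested.

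*Ptgs2* encodes COX-2, the form that cells switch on in response to cytokines, growth factors and mechanical load. Its only probe (A_51_P254855, mm9 chr1:151954744-151954803) read 7.85, 7.22 and 6.72 in the *Ano1fl/fl* group and 12.27, 12.16 and 11.56 in the *Ctsk-Cre;Ano1fl/fl* group, and its first 30 bases are as follows.
A_51_P254855: tttttgaaaagtttgaagttagaacttagg
The lowest *Ctsk-Cre;Ano1fl/fl* array stood far above the highest *Ano1fl/fl* array, and all 6 arrays were well above background. The mean rise was 26.6-fold, a log2 difference of 4.73 ± 0.32 (SE; 95% confidence interval 3.95 to 5.52; limma adjusted p = 1.16e-04). Over the 16 other settings tried, the log2 difference ran from 4.25 to 5.03. Of the 20 stromal cell and osteoblast markers, 16 were higher between the same arrays and 2 were lower. Their median log2 difference was 3.90. All 10 osteoclast markers moved in the same direction as *Ptgs2*, with a median of 3.02. So did 5 of the 6 tested B cell markers, with a median of 2.68 and sums of 28767 to 56044 against 7568 to 9087, while *Vpreb1* was lower and *Igll1* was not well above background anywhere. The part of these cells in the *Ptgs2* rise was not tested.

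RIKEN, Gm and LOC symbols, accessions and probe names were left out of a search for patterns like that of *Ptgs2*. Among the other tested genes, the 3 with the pattern most like it over the 6 arrays were *Adamts4*, *Pitx1* and *Pcdh19*. *Adamts4*, an aggrecan-cleaving protease, lay at a root mean square distance of 0.06 on the log2 scale once each gene was centred on its own mean, and read 4.65, 4.11 and 3.63 against 9.13, 8.89 and 8.38, with 2 of the 3 *Ano1fl/fl* arrays well above background. *Pitx1*, a homeobox transcription factor, and *Pcdh19*, a protocadherin, cleared background on no *Ano1fl/fl* array, so their places in this order rest partly on values near background and their rises are given as bounds, at least 8.58-fold and at least 17.6-fold.

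*Ptges* encodes the inducible membrane-bound PGE synthase that commonly works beside COX-2, and its 3 probes rose by unequal amounts. They lie along 1 uninterrupted stretch of the transcript, since their spacing on the transcript equals their spacing on the genome, and their first 30 bases are shown to tell them apart.
A_55_P1974189, from transcript position 364: aaccctctgatcgcctggatacatttcctc
A_51_P312327, from transcript position 740: gccacttacagatgagctgtcaagatttga
A_55_P1974193, from transcript position 3583: atgataaaggactaaacctctgaacctgta
The probe nearest the 5′ end (mm9 chr2:30748214-30748273) read 5.83, 6.27 and 6.00 in the *Ano1fl/fl* group and 9.17, 8.81 and 8.38 in the *Ctsk-Cre;Ano1fl/fl* group, 6.75-fold higher (log2 difference 2.75 ± 0.22 SE, limma adjusted p = 1.82e-04). The middle probe (mm9 chr2:30747838-30747897) read 7.41, 7.76 and 7.45 against 10.43, 10.20 and 9.79, 6.05-fold higher (log2 difference 2.60 ± 0.18 SE, limma adjusted p = 1.18e-04). The probe nearest the 3′ end (mm9 chr2:30744995-30745054) was the brightest of the 3 and stood for the gene in the gene fit. It read 14.28, 14.18 and 14.13 against 14.64, 14.66 and 14.65, a rise of 0.45 ± 0.07 (SE) on the log2 scale (1.37-fold, limma adjusted p = 0.00255). The groups were apart at all 3 probes, but the 95% confidence interval of the 3′ probe (0.27 to 0.63) lay wholly below those of the other 2 (2.23 to 3.28 and 2.16 to 3.04), so the size of the *Ptges* rise differed between its probes. With the probes of a gene averaged, its log2 difference was 1.93. Without normalization between the arrays, that of the 3′ probe was 0.16 and no longer passed (limma adjusted p = 0.414).

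*Ptges2* encodes a second, constitutive PGE synthase. Its probe (A_51_P349008) read 10.79, 10.91 and 10.73 against 11.15, 11.07 and 11.02, and every *Ctsk-Cre;Ano1fl/fl* array was above every *Ano1fl/fl* array. The log2 difference of 0.27 ± 0.08 (SE) was 1.21-fold with a limma adjusted p of 0.0282, and the call was lost under 7 of the 16 other settings, among them 75th percentile scaling (adjusted p = 0.0627) and 4 of the 6 fits that left out an array.

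**Figure D2:**
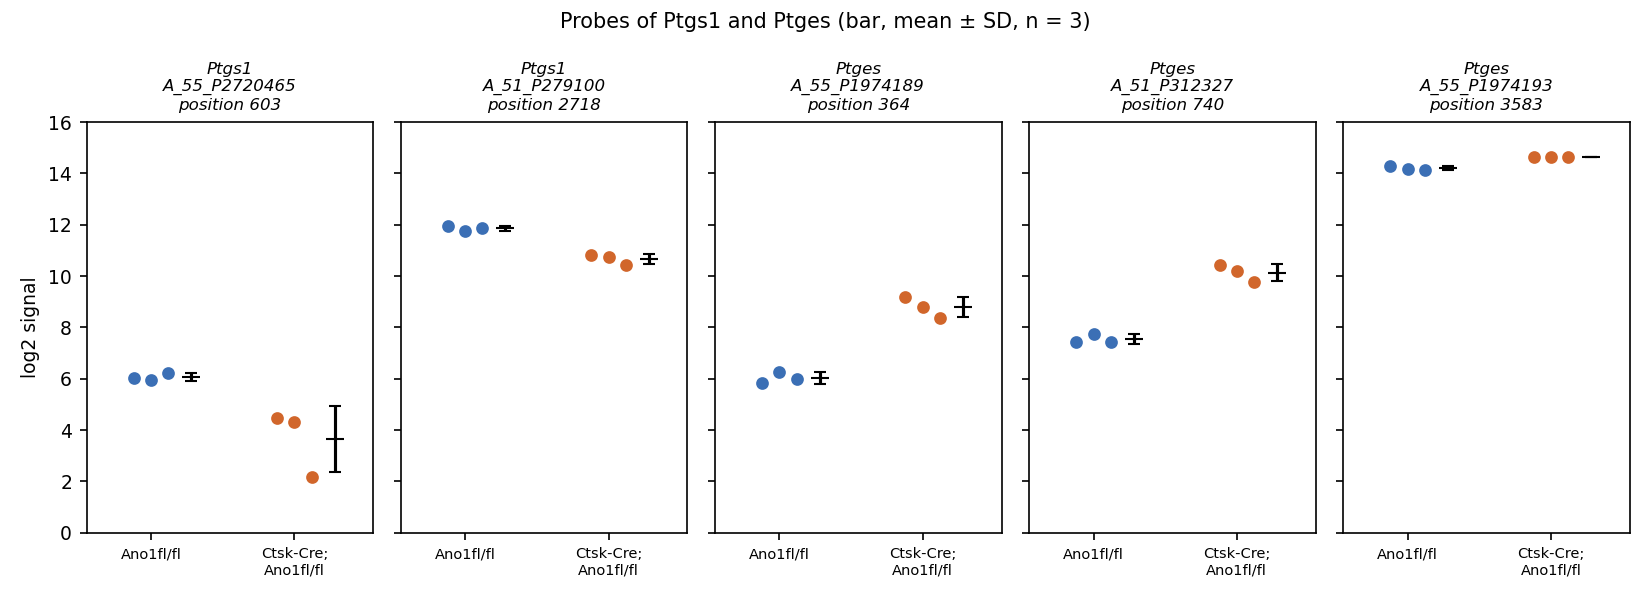
Normalized log2 signal of the 2 *Ptgs1* probes and the 3 *Ptges* probes on each array, ordered by position on the transcript, with mean ± SD as black bars (n = 3). The *Ptges* probes at positions 364 and 740 rise by 2.75 and 2.60 and the probe at 3583 by 0.45 on the log2 scale, and both *Ptgs1* probes fall.

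Of the 4 PGE2 receptors, *Ptger2* and *Ptger3* were lower, *Ptger4* did not pass the test and *Ptger1* was not detected. *Ptger2* encodes EP2, which raises cyclic AMP through the stimulatory G protein. Its probe (A_51_P249215) read 10.58, 10.35 and 10.28 in the *Ano1fl/fl* group and 9.71, 9.61 and 9.52 in the *Ctsk-Cre;Ano1fl/fl* group. The groups did not overlap, and the fall was 1.73-fold (log2 difference -0.79 ± 0.10 SE, limma adjusted p = 0.00129).

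*Ptger4* encodes EP4, which couples to the same G protein as EP2. Its brightest probe (A_55_P2747136) read 12.15, 11.69 and 11.70 against 12.13, 12.17 and 12.11. *Ano1fl/fl* replicate 1 lay within the range of the *Ctsk-Cre;Ano1fl/fl* arrays, while the other 2 lay below it. The log2 difference of 0.29 ± 0.14 (SE; 95% confidence interval -0.05 to 0.62) had a limma adjusted p of 0.125, and without *Ano1fl/fl* replicate 1 it was 0.44 with an adjusted p of 0.00685. The second probe (A_51_P207988) read 9.10, 8.87 and 9.04 against 9.26, 9.12 and 9.19, with groups that did not overlap and a log2 difference of 0.19 (limma adjusted p = 0.136), and the third (A_55_P2719165) cleared background on 0 of the 6 arrays. Without normalization between the arrays, the log2 difference of the brightest *Ptger4* probe was 0.02 (limma adjusted p = 0.921). Of the genes of EP2 and EP4, only *Ptger2* thus passed the test, and the direction of *Ptger4* was left unsettled.

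*Ptger3* encodes EP3, which mainly lowers cyclic AMP through the inhibitory G protein. Its probe at transcript position 1803 (A_51_P520718) read 5.79, 5.55 and 5.72 against 4.57, 4.67 and 4.43, a non-overlapping fall of 2.19-fold (log2 difference -1.13 ± 0.10 SE, limma adjusted p = 2.94e-04). These signals were dim, at 51.3 to 62.9 against 20.4 to 25.4 before normalization, and the log2 difference ran from -1.31 to -0.39 over the other settings, the smallest of them after a background correction with an added offset, with a call under each. The other 3 *Ptger3* probes were well above background on 0 of the 6 arrays. Mast cell and basophil markers also fell between these arrays, with 6 of 8 tested lower, none higher and 1 more not well above background anywhere, and sums of 1498 to 4383 against 8273 to 10486; their part in the *Ptger3* fall was not tested. *Ptger1* encodes EP1, which signals through calcium. Its only probe (A_55_P2503345) gave processed signals of 10.8, 3.20 and 8.83 against 6.63, 9.87 and 3.40 and cleared background on 0 of the 6 arrays, so neither a level nor a fold is given for it.

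*Hpgd* encodes 15-hydroxyprostaglandin dehydrogenase, which inactivates PGE2 inside cells. Its probe (A_51_P458778) read 8.35, 6.54 and 6.51 in the *Ano1fl/fl* group and 6.67, 5.36 and 5.26 in the *Ctsk-Cre;Ano1fl/fl* group. Replicate 1 was the highest array of each group, and the highest *Ctsk-Cre;Ano1fl/fl* array overlapped the lower *Ano1fl/fl* arrays. The log2 difference of -1.37 ± 0.61 (SE; 95% confidence interval -2.86 to 0.12) missed the threshold (limma adjusted p = 0.107), so a fall as large as that of *Ptgs1* lies within the interval, as does a small rise. Without *Ano1fl/fl* replicate 1 it was -0.76 (limma adjusted p = 0.226).

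**Figure D3:**
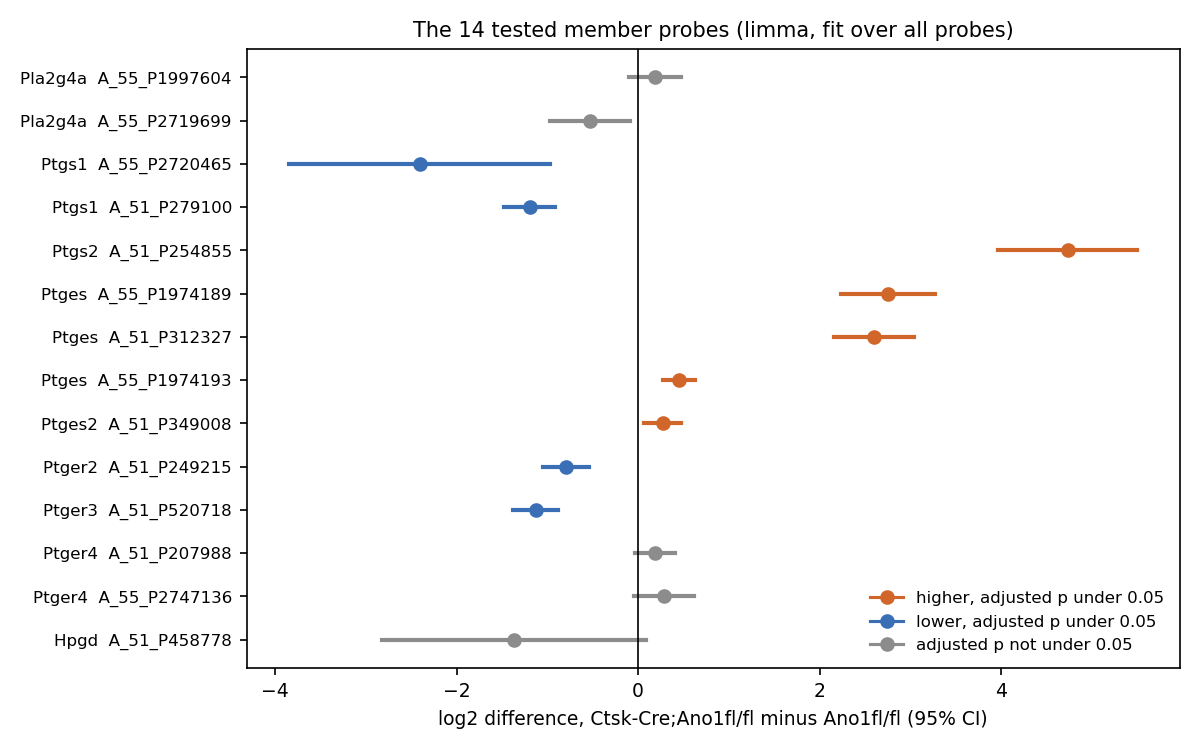
Log2 difference (*Ctsk-Cre;Ano1fl/fl* minus *Ano1fl/fl*) of the 14 tested member probes with its 95% confidence interval from limma's fit across all probes; orange marks probes called higher, blue those called lower and grey those not called. *Ptgs2* stands at 4.73, the 3 *Ptges* probes lie between 0.45 and 2.75, and *Ptgs1*, *Ptger2* and *Ptger3* lie below 0. The *Hpgd* probe (-1.37) and the *Pla2g4a* probe A_55_P2719699 (-0.53) also lie below 0 and were not called.

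Around the members, 100 of 120 genes of the arachidonic acid and PGE2 lists were tested, of which 35 were higher and 29 lower, with a median log2 difference of -0.04 against -0.06 over all tested genes. Among all tested genes 23.4% were higher and 29.0% lower, and the counts of each list below stand beside these same shares. Some genes of the lists were tested only through the group where they were high. With a filter on all 6 arrays, 29 pathway genes were higher and 25 lower, beside 4141 and 5501 of all genes. Of 20 other phospholipases A2 and regulators, 12 were tested, 3 were higher and 2 lower, and the median was -0.10. Those higher were *Pla2g2d*, a secreted enzyme (1.44, with 2 of the 3 *Ano1fl/fl* arrays well above background), *Pla2g6*, the calcium-independent form (0.82), and *Pla2g12a* (0.52). *Pla2g4c*, a relative of *Pla2g4a*, was at least 1.45-fold lower, as it did not clear background well on any *Ctsk-Cre;Ano1fl/fl* array, and *Anxa1*, which encodes the phospholipase-inhibiting protein annexin A1, fell by 0.43 on the log2 scale.

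The other prostanoid synthases split evenly, with 3 of 9 higher, 3 lower and a median of -0.02. *Akr1c18*, an aldo-keto reductase that makes and breaks down steroids and prostaglandin F2 alpha, read 9.36, 9.55 and 8.93 against 12.75, 12.87 and 12.95, 12.0-fold higher (limma adjusted p = 3.03e-05). *Fam213b*, the prostamide and prostaglandin F synthase, was 1.18 higher and *Hpgds*, the haematopoietic prostaglandin D synthase, 0.70 higher on the log2 scale. *Ptgds*, the other prostaglandin D synthase, had a log2 difference of -0.95 and was well above background on only 1 of the 3 *Ctsk-Cre;Ano1fl/fl* arrays. *Akr1b3* fell by 0.57 and *Ptges3*, the cytosolic PGE synthase and HSP90 co-chaperone p23, by 0.27. The 3 tested synthases left, *Cbr1*, *Ptgis* (prostacyclin synthase) and *Tbxas1* (thromboxane synthase), had log2 differences of 0.20, -0.02 and -0.19 and did not pass.

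Of 5 receptors for the other prostanoids, 2 were tested. *Tbxa2r*, the thromboxane receptor, fell by 0.79 on the log2 scale (limma adjusted p = 0.00198), and *Ptgir*, the prostacyclin receptor, had a difference of -0.07 with a 95% confidence interval of -0.32 to 0.18. Of 6 genes of prostaglandin transport and breakdown, 3 were higher and none lower, with a median of 0.42. *Slco2a1*, the transporter that takes PGE2 up into cells, read 2.36, 4.17 and 4.01 against 8.38, 8.16 and 7.42, a log2 difference of 4.47. Only 1 of the 3 *Ano1fl/fl* arrays was well above background. The size of this difference therefore rests on values near background, and the gene was tested only through the group where it was high. *Abcc4*, which exports PGE2, was 0.56 higher, and *Slco2b1*, another uptake carrier, was 0.82 higher at its brightest probe and lower at another. The reductases *Ptgr1*, *Ptgr2* and *Zadh2*, which act after *Hpgd*, had differences of -0.22, -0.10 and 0.29 and did not pass.

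The lipoxygenase and leukotriene genes, which draw on the same arachidonic acid, had 8 of 14 tested genes lower and 2 higher, with a median log2 difference of -0.66. *Alox5*, the enzyme of the first steps of leukotriene synthesis, read 11.13, 10.79 and 10.75 against 9.69, 9.34 and 9.33, 2.71-fold lower (limma adjusted p = 5.69e-04). Its partner *Alox5ap* fell by 1.19 and *Alox12*, the platelet-type 12-lipoxygenase, by 1.30 on the log2 scale, and *Alox12e* was at least 1.40-fold lower. Also lower were *Lta4h*, which makes leukotriene B4, and the leukotriene receptor genes *Cysltr1*, *Cysltr2* and *Ltb4r1*, by 0.58 to 1.09. Those higher were *Ephx2*, soluble epoxide hydrolase, at 5.61, 5.84 and 5.60 against 10.72, 11.30 and 10.97 (39.8-fold, limma adjusted p = 1.09e-05), and *Dpep1*, a dipeptidase that trims leukotriene D4 (11.4-fold). The falls in the platelet, macrophage and mast cell markers given above run between the same arrays, as do falls in 7 of 10 neutrophil markers, of which 1 was higher (sums 212422 to 264896 against 320315 to 337289), and their part in the lower leukotriene genes was not tested.

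Genes through which EP receptors act on cyclic AMP were mixed, with 8 of 28 tested higher, 10 lower and a median of -0.11. *Gnai1*, an inhibitory G protein subunit, was at least 3.52-fold higher and did not clear background on any *Ano1fl/fl* array. The adenylyl cyclase *Adcy3* rose by 2.74, *Adcy4* by 1.45 with 1 of the 3 *Ano1fl/fl* arrays well above background, and *Rapgef3*, the cAMP sensor Epac1, by 1.26 on the log2 scale. *Gnas*, the stimulatory subunit used by EP2 and EP4, rose by 0.51. The cyclase *Adcy5* was at least 1.69-fold lower, and *Prkar1b* (a regulatory subunit of protein kinase A), *Arrb1* (beta-arrestin 1) and *Adcy7* (a cyclase) had log2 differences of -0.98, -0.77 and -0.67.

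The known inducers of *Ptgs2* and their receptors gave the largest count of rises among these lists, 11 of 14 higher and 1 lower with a median log2 difference of 0.83. *Il1a*, the cytokine interleukin-1 alpha, read 8.73, 8.90 and 8.65 in the *Ctsk-Cre;Ano1fl/fl* group. It did not clear background on any *Ano1fl/fl* array, so it was at least 27.7-fold higher. It entered the test, and the count of the list, only through the group where it was high. *Tnf* read 9.23, 9.56 and 9.32 against 13.70, 13.70 and 13.41, an 18.8-fold rise (limma adjusted p = 1.05e-05). The early-response factor *Egr1* rose by 3.14, the interleukin-1 receptor *Il1r1* by 2.28 and *Il1b* by 2.06 on the log2 scale. The C/EBP factor genes *Cebpd* and *Cebpb* rose by 1.08 and 0.55, and the NF-kB subunits *Nfkb1* and *Rela* by 0.59 and 0.39. The single gene that fell was *Il1rap*, the interleukin-1 receptor's accessory chain, by 0.46, and *Tlr4* and *Tnfrsf1a* had differences of 0.09 and -0.02 that did not pass. All osteoclast markers and most stromal cell, osteoblast and B cell markers rose between the same arrays, by the amounts given above. The part of these cells in the rises of the list was not tested.

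Of 9 factors that stabilise or degrade the *Ptgs2* message, 1 was higher and 4 were lower, with a median of -0.17. *Zfp36*, tristetraprolin, which marks such messages for decay, rose by 0.95 on the log2 scale, while its relatives *Zfp36l2* and *Zfp36l1*, the binding protein *Celf2* and the decay factor *Khsrp* fell by 1.01, 0.61, 0.61 and 0.32. *Elavl1*, which encodes the stabilising protein HuR, had a difference of -0.17 that did not pass (limma adjusted p = 0.109).

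Of 8 bone genes known to respond to PGE2, 6 were tested and 4 were higher, with a median of 2.02. *Il6* read 7.67, 7.50 and 7.46 against 12.04, 12.02 and 12.05, 22.4-fold higher (limma adjusted p = 2.68e-06). *Tnfrsf11b*, which encodes osteoprotegerin, the soluble decoy receptor for RANKL, was at least 11.6-fold higher, since it did not clear background on any *Ano1fl/fl* array. The nuclear receptor *Nr4a1* rose by 3.38 and *Vegfa* by 0.66 on the log2 scale, while *Nr4a2* and *Nr4a3* had differences of -0.15 and -0.09 and did not pass. *Tnfsf11*, the gene of RANKL itself, and *Areg* cleared background on 0 of the 6 arrays. Most of the stromal cell and osteoblast markers rose with *Il6* and *Tnfrsf11b*, and their part was not tested here either.

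**Figure D4:**
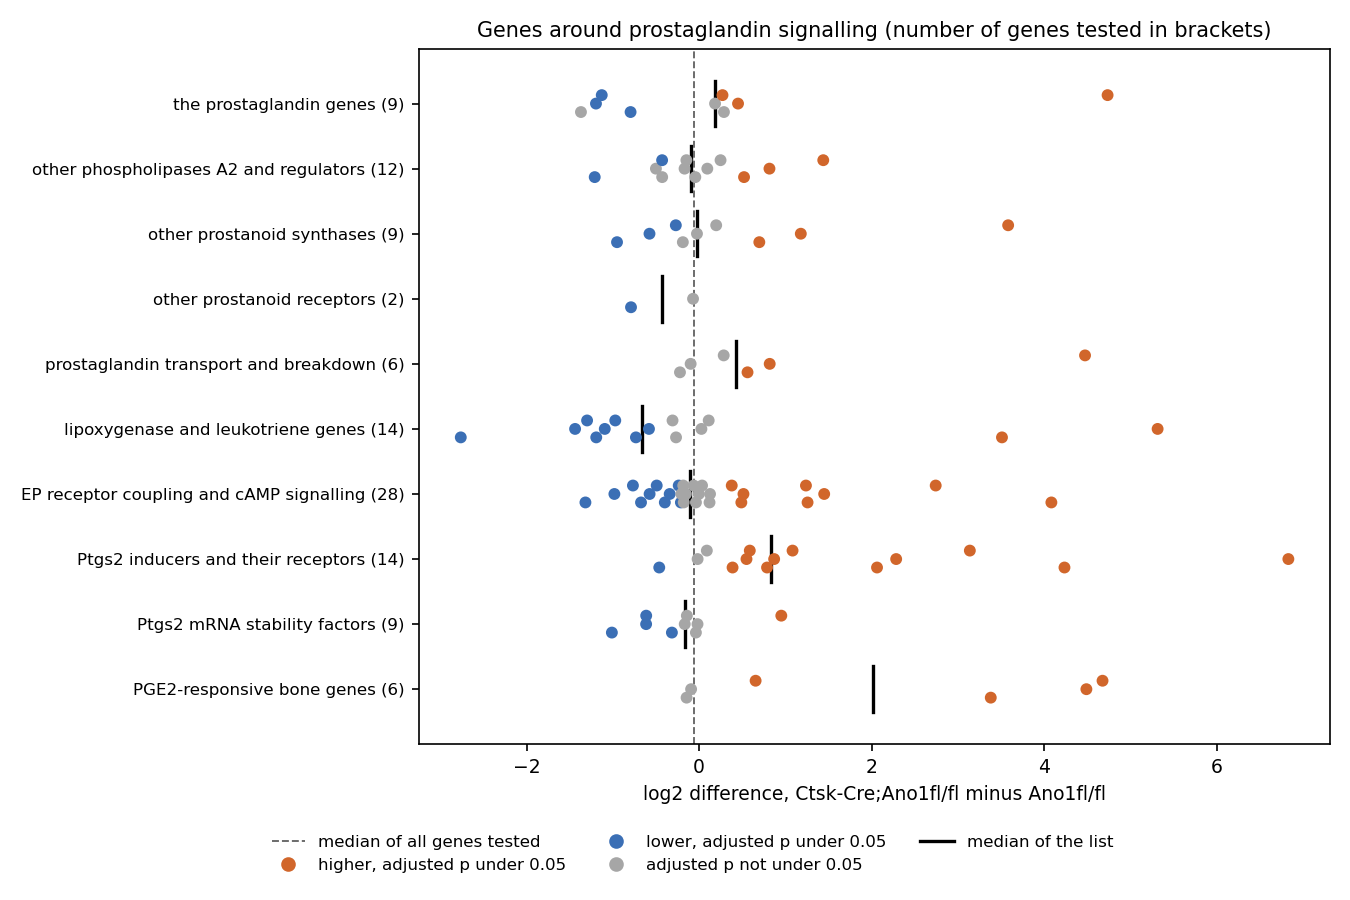
Log2 difference (*Ctsk-Cre;Ano1fl/fl* minus *Ano1fl/fl*) of each tested gene of the prostaglandin genes and of 9 lists around them, with the median of each list as a black line and the median of all tested genes (-0.06) dashed; orange marks genes called higher, blue those called lower and grey those not called. The *Ptgs2* inducers lie mostly to the right (median 0.83) and the lipoxygenase and leukotriene genes mostly to the left (median -0.66).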

How the data were processed

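Single-colour Agilent arrays of 6 RNA samples were used, 3 per genotype. The authors deposited scanner files from Agilent Feature Extraction 10.7.1.1 (per the labels), whose background-subtracted processed signal is an intensity on a linear scale, and a series matrix that equals the deposited median intensity of each spot with no normalization. The 6 arrays shared 1 slide and 1 scan. Control spots and spots with an outlier mark were left out, processed signals were log2 transformed and quantile normalized (the algorithm named in the study's methods), and spots of a probe were averaged. A probe was tested where every one of the 3 arrays of a group, or of both, put it well above background ("cleared background"). The brightest of all probes of a gene stood for it, and the gene was tested where that probe passed. limma 3.58.1 (lmFit and eBayes, R 4.3.3) compared the groups over all genes and, separately, over all probes, with Benjamini-Hochberg adjustment and a threshold of 0.05, and was tested on simulated data. Where no array of a group put a gene well above background, its fold is a bound set by the dimmest probes that were. Arrays give no counts, so their number limits the precision.

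The members and lists were chosen with earlier results of these data known. Named were all members with all probes, up to 4 of the largest rises and 4 of the largest falls of each list among called genes, genes needed to account for a list, and the 3 genes closest to *Ptgs2*. That last search left out RIKEN, Gm and LOC symbols, accessions and probe names. Alternatives were 75th percentile scaling, no normalization between arrays, the series matrix, normexp (offset 50), no filter, a filter on all 6 arrays, averaging the probes of each gene, limma with trend and robust settings, the methods' t-test, the replicate number as a block, and leaving out each array. Probe coordinates are those of the array (mm9); promoter sequences are from RefSeq (GRCm38.p6), and exon or UTR positions of the probes were not assigned because no annotation of mm9 was used here. Python 3 with pandas and matplotlib searched motifs and drew the plots.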

Additional observations from a re-analysis of the deposited data

How the results depend on the processing

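The 6 calls among the members kept their direction under all 16 alternatives, and the calls of *Ptgs1*, *Ptgs2*, *Ptger2* and *Ptger3* kept their side of the threshold as well. Without normalization between arrays the median log2 difference of all tested genes was -0.30 against -0.06, and the counts moved to 1 member, 3 member probes, 2564 genes and 3680 probes called higher. Under that setting the difference of *Pla2g4a* turned to -0.075 at its brighter probe and that of *Ptger4* to 0.00 at probe A_51_P207988 (-0.0038), while *Hpgd* passed at -1.58 (limma adjusted p = 0.0177). With the probes of a gene averaged *Pla2g4a* was at -0.17. None of these turned values of *Pla2g4a* and *Ptger4* was called in either direction. The second *Pla2g4a* probe, A_55_P2719699, had a negative difference under each of the 15 alternatives of the probe fit and passed under 4 of them: no normalization between arrays (limma adjusted p = 0.0106), a filter on all 6 arrays (0.0441), the replicate number as a block (0.0323) and leaving out *Ano1fl/fl* replicate 3 (0.00934). In the gene fit, 75th percentile scaling put the median of all genes at -0.12. The methods' t-test gave 6 members at an unadjusted p under the threshold and 6 after Benjamini-Hochberg adjustment. The probe A_55_P2720465 of *Ptgs1* was not called by that test or without a filter on dim probes.

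The labels do not say whether the replicate numbers pair the samples. The deviations of same-numbered arrays from their group means correlated at 0.00, -0.06 and -0.08. With 3 arrays in a group these values cannot settle whether a pairing exists. With the replicate number as a block, 2 members were higher and 4 lower, since *Hpgd* passed (limma adjusted p = 0.0036) and *Ptges2* did not (limma adjusted p = 0.0598), and 4 member probes were higher and 6 lower, 35 pathway genes higher and 26 lower, 4200 genes higher and 5079 lower, and 5988 probes higher and 8162 lower. Leaving out each array in turn gave 2 to 3 members higher and 3 lower, 34 to 37 pathway genes higher and 26 to 27 lower, and 4104 to 4338 genes higher and 4876 to 5239 lower. Dim probes limit *Ptger1* and 3 of the 4 *Ptger3* probes, which were not well above background on any array.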
